A study of Mus musculus with 9 samples.

Results

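Zfp979, 5830444B04Rik, Slc6a15, Gpc4 and C1qtnf6 were expressed in WT myeloid progenitors (MPs) and nearly lost from MPs carrying the NUP98-HOXA10hd fusion gene (NA). These 5 genes of the 37980 in the table were chosen by their counts, present in the WT samples and near 0 in the NA samples, so the comparison described here is the one that chose them. Their own levels in both groups are therefore given as a description, with no test. All 5 passed the filter on low values, which each of them met through the WT samples. In all 5 every NA value lay below every WT value, as in 12.8% of the tested genes.

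The series holds RNA-seq libraries of 4 samples of NA MPs and 5 of WT MPs from mouse bone marrow, each made from 100000 sorted Lin-c-kit+Sca1- cells. The recipients were irradiated adult C57BL/6 mice that had been given multipotent progenitors (MPPs) of either genotype together with helper bone marrow. Donors of NA MPPs were NA LSL/+; Vav-Cre mice, in which Cre made in blood cells switches on a fusion gene placed at the Rosa26 locus of a C57BL/6 embryonic stem cell line. The fusion joins part of a nuclear pore protein to the DNA-binding homeodomain of a Hox protein. NA MPs were sorted as Tdtomato+ cells and WT MPs as CD45.2+ cells. The recipients are described as CD45.2+ as well, while the study's blood analyses follow donor cells as Tdtomato+ or CD45.1+. The origin of the WT MPs (transplanted, helper or host cells) is therefore not settled by the sources used here. The labels place the sort 3 months after transplantation, the study's methods a month later. No source says which samples came from the same mouse, so p-values measure the spread between samples only.

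Total counts, recovered from the deposited values as described under the processing, were between 5557717 and 8106140 per NA MP sample and between 6141707 and 7751471 per WT MP sample. The limit of 3 counts that a count of 0 allows was between 2.48 and 3.60 units of the deposited scale in NA MPs, for counting error only. Nup98 was at 955.8 ± 81.8 in the 4 NA samples (SD) against 599.0 ± 29.9 in the 5 WT samples. Hoxa10 was at 128.8 ± 17.7 and 8.05 ± 2.57, so the fusion's partner genes followed the labels. Both groups carried the myeloid progenitor markers Mpo, Elane, Kit and Cd34. Of 12 tested markers of this kind, 4 were higher and 2 lower in NA MPs, with a median log2 difference of 0.06.

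The 5 genes belong to unrelated families. Zfp979, also called Ssm1b, encodes a KRAB zinc finger protein. Proteins of this family bind DNA through arrays of C2H2 fingers and recruit the corepressor TRIM28, which in turn brings histone and DNA methylation to transposons and some genes. C1qtnf6 encodes a secreted protein with a collagen stalk and a C1q domain. Gpc4 encodes a glypican, a heparan sulfate proteoglycan held at the cell surface by a lipid anchor, where its sugar chains bind growth factors. Slc6a15 encodes a sodium-coupled transporter of branched-chain amino acids and proline, best known from neurons. 5830444B04Rik is a noncoding transcript whose role is not known.

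Zfp979 (ENSMUSG00000066000) lies on the minus strand of chr4:147611937-147642513 in GRCm38. It had 66, 87, 60, 83 and 94 counts in WT replicates 1 to 5 and 0 counts in each of the 4 NA samples. On the deposited scale the WT mean was 75.5 ± 10.4 (SD, n = 5), so the level in WT MPs was at least 24.3-fold higher than the limit of 3 counts per NA sample. Every WT sample stood far above that limit, and no NA sample held a single count. Its log2 difference of -6.25, on the log2(value + 1) scale, was the lowest among the 11987 tested genes.

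The coding sequence of Zfp979 has 1221 bases, in which 3 repeats match the exact spacing of a C2H2 finger. The gene sits in a cluster of close copies, so its reads could be taken by a relative, or lend counts to one. Of all 75-base windows in its transcripts, 76.4% occurred in no other annotated gene. The nearest relatives by transcript alignment were Rex2 (88.5% identical over the coding sequence), Zfp600 (88.3%), Zfp980 (88.1%), Zfp978 (92.5% over a shorter stretch) and Zfp981 (86.3%). One finger of Zfp979, from base 859 of its coding sequence, is shown with the matching stretch of Rex2 as an example. This stretch differs more than the coding sequence as a whole, which is 88.5% identical between the 2 genes. Capitals mark the 19 bases of 84 that differ, and both sequences run 5′ to 3′ and come from the GENCODE M21 transcripts.
Zfp979: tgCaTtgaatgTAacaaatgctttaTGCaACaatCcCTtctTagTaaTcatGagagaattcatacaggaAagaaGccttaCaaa
Rex2: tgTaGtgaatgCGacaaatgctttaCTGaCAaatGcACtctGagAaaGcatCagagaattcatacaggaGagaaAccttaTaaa
These 5 copies held few counts or none in either group. Rex2 and Zfp600 were at 0 in all 9 samples. Zfp978 had 1 count in 1 WT sample, and Zfp980 had 1 count in 1 NA sample and 2 in 1 WT sample. Zfp981, whose start lies 1.14 Mb from that of Zfp979, had 4, 6, 5, 4 and 2 counts in WT replicates 1 to 5 and 0 in all NA samples. None of these copies passed the filter, and none was tested. Gm17771, the next in similarity at 85.2%, was not analysed here. Among other zinc finger genes near Zfp979, the untested Zfp988 was at 6.50 ± 4.12 in NA MPs and 3.92 ± 3.22 in WT MPs, and Zfp989 at 1.98 ± 1.35 and 0.931 ± 0.899. Zfp534, also untested, leaned the other way, at 0.557 ± 1.11 in NA MPs and 1.80 ± 2.08 in WT MPs. The untested Zfp985 was about level, at 3.462 ± 2.945 and 3.319 ± 2.471. All 4 rest on few counts. Zinc finger genes of this stretch that were tested are among the neighbours described below, with log2 differences between -0.28 and 0.27.

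5830444B04Rik (ENSMUSG00000084803) is on the minus strand of chr4:155398763-155421704, and its start lies 7.78 Mb from that of Zfp979. It had 25, 29, 22, 27 and 26 counts in WT replicates 1 to 5 and 0 in each NA sample. The WT mean was 25.1 ± 1.95 (SD, n = 5), at least 8.05-fold above the limit of 3 counts per NA sample. The bound is lower than that of Zfp979 since fewer WT counts stand behind it. Both bounds allow 3 counts in each NA sample, so they do not compare with the ratios of pooled levels given for the other genes. The exons of 5830444B04Rik share 453 bases with Cfap74 on the opposite strand, a gene of the cilium axoneme. Cfap74 had 2, 6, 1, 1 and 4 counts in WT replicates 1 to 5 and 0 in the NA samples. Whether the authors counted by strand is not given in the sources used here, so counts in the shared bases cannot be assigned to either gene. Of its 75-base windows, 94.3% were in no other gene.

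C1qtnf6 (ENSMUSG00000022440), on the minus strand of chr15:78523346-78531416, was the most expressed of the 5. WT replicates 1 to 5 had 159, 206, 173, 190 and 186 counts, and NA replicates 1 to 4 had 5, 8, 7 and 12. The means on the deposited scale were 177.5 ± 7.33 (SD, n = 5) and 7.95 ± 1.60 (SD, n = 4). Expression in WT MPs was 21.8-fold that in NA MPs, with an exact 95% counting interval from 15.3 to 32.1. This interval, like those given below, pools the counts of each group and covers counting error only. The spread between samples and the choice of the genes by this comparison are not in it. C1qtnf6 was the only gene of the 5 with counts in every NA sample, and the groups did not overlap. An antisense gene, Gm49490, shares 117 exon bases with it.

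Gpc4 (ENSMUSG00000031119), on the minus strand of chrX:52053021-52165252, had 17, 34, 21, 19 and 23 counts in WT replicates 1 to 5. NA replicates 1 to 4 had 0, 0, 2 and 3 counts. The means were 21.9 ± 4.28 (SD, n = 5) and 1.18 ± 1.36 (SD, n = 4), a ratio of 17.4 with a counting interval from 7.24 to 54.6. The groups were well apart, but the NA level rested on 5 counts in all, and the ratio became 30.1 without NA replicate 4.

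Slc6a15 (ENSMUSG00000019894), on the plus strand of chr10:103367783-103419377, had 16, 24, 26, 23 and 25 counts in WT replicates 1 to 5. NA replicates 1 to 4 had 0, 1, 3 and 0 counts. The means were 22.1 ± 3.44 (SD, n = 5) and 1.09 ± 1.58 (SD, n = 4), and the ratio was 21.8 with a counting interval from 8.27 to 81.2. NA replicate 3 held most of the remaining counts, and without it the ratio became 67.1. All 75-base windows of Gpc4 and Slc6a15 were found in no other gene.

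**Figure D1:**
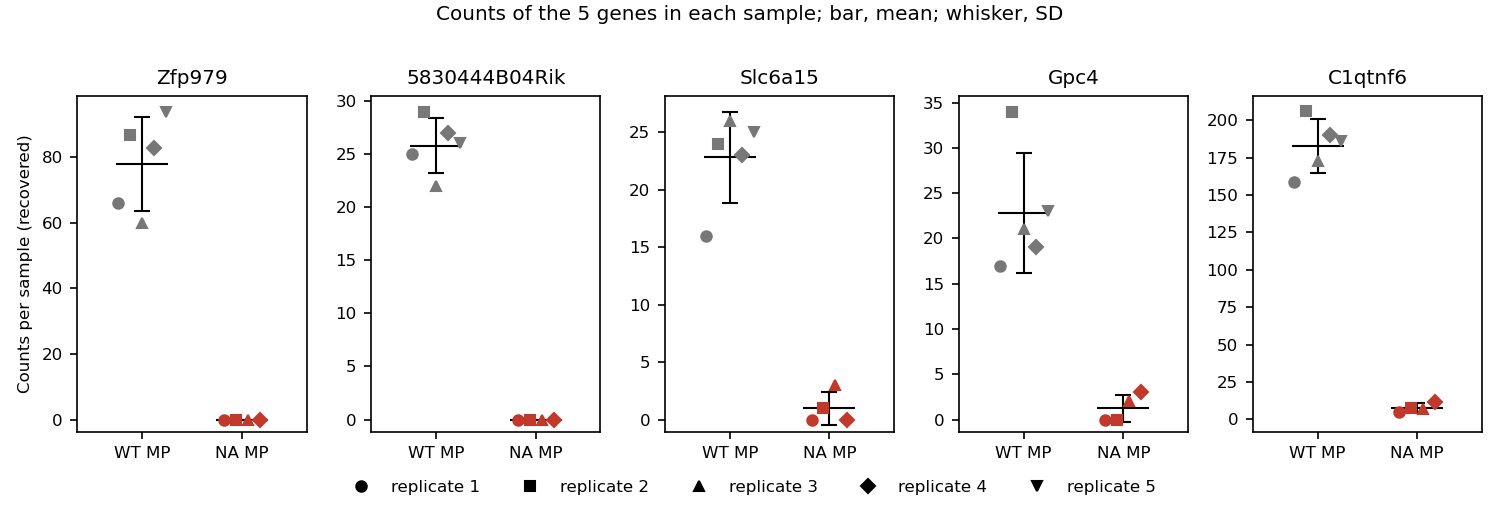
Counts of the 5 genes in each sample, recovered from the deposited values, with 1 panel and 1 linear axis per gene. Grey symbols are the 5 WT MP samples, red symbols the 4 NA MP samples, the bar is the mean and the whisker the SD. Zfp979 and 5830444B04Rik are at 0 in every NA sample, and C1qtnf6 is at 5 to 12 counts there against 159 to 206 in WT samples.

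The spread among WT samples was close to, or under, that of counting alone for 4 of the genes. The chi-square per degree of freedom of the WT counts was 0.149 for 5830444B04Rik, 0.301 for C1qtnf6, 0.517 for Slc6a15 and 0.911 for Gpc4. It was 1.43 for Zfp979. Expression in WT samples was part of the choice of the genes, so these values are a description only.

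Per length of exon sequence, 4 of the genes were low to begin with. In WT MPs C1qtnf6 was at 9.91 CPM per kb, Zfp979 at 2.77, Gpc4 at 1.24, 5830444B04Rik at 0.700 and Slc6a15 at 0.431. The ranges of neighbours in this order did not overlap between any 2 of them, with Slc6a15 spanning 0.336 to 0.515 and 5830444B04Rik 0.625 to 0.752. The median of 11644 tested genes with a length was 8.15 CPM per kb, and 55.8% of them were lower than C1qtnf6. Only 23.4% were lower than Zfp979, 12.2% lower than Gpc4, 6.74% lower than 5830444B04Rik and 3.65% lower than Slc6a15. These are bulk samples, in which fewer cells expressing a gene and less RNA per cell cannot be told apart.

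Which genes count as most silenced depended on the minimum level required. Ranked by the log2 difference among the 1412 genes that passed the threshold with lower NA values and no overlap, Zfp979, 5830444B04Rik and C1qtnf6 were the first 3. The 5 genes were chosen on this same comparison, so their ranks are a description. Slc6a15 came at rank 5 with -3.74 and Gpc4 at rank 8 with -3.62. Their means over the 9 samples were 1.93 and 1.91 CPM, just under the level of 2 CPM that the ranking for named genes required. Among genes above that level, the next after C1qtnf6 were Sdc2 with -3.92, Zfp783 with -3.65, Lrig3 with -3.62, Bex4 with -3.56 and Myh10 with -3.16. Gpc4 and Lrig3, the leucine-rich repeat membrane protein, thus had the same value on either side of the list's edge.

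**Figure D2:**
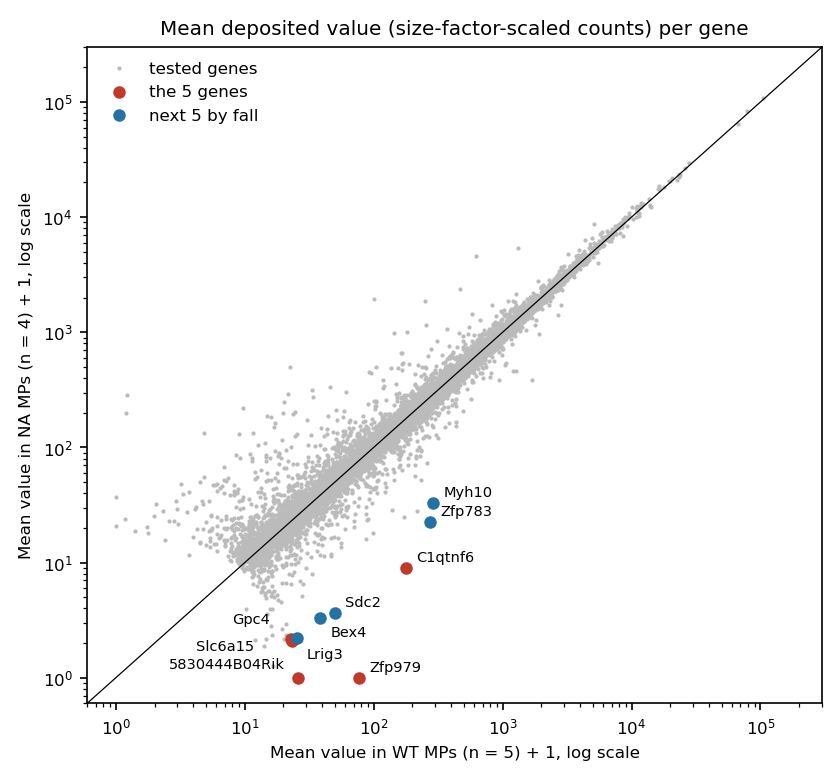
Mean deposited value plus 1 in WT MPs (x axis) and in NA MPs (y axis) for each tested gene, both on log scales, with the line of equal values. Red points are the 5 genes and blue points the next 5 by fall. Zfp979 and 5830444B04Rik lie at the floor of the NA axis, and Zfp783 and Myh10 lie closer to the line, at means of 21.4 and 31.8 in NA MPs.

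The genes whose profiles over the 9 samples were most like each of the 5 came largely from the same ranking, which the choice of the genes makes likely. The measure was the summed difference between profiles scaled to a sum of 1, halved so that 0 is an identical profile and 1 a profile with no shared sample. Zfp979 was nearest to 5830444B04Rik at 0.0436, followed by the Notch ligand Jag1 at 0.0616 and C1qtnf6 at 0.0644. C1qtnf6 was nearest to Bex4 at 0.0335, Zfp783 at 0.0339 and 5830444B04Rik at 0.0477, which was itself followed by Bex4 at 0.0536. Slc6a15 was nearest to Zfp125 at 0.0572, Cdcp1 at 0.0603 and Lrig3 at 0.0711. Gpc4 was nearest to Zfp783 at 0.0717, the cyclophilin gene Ppic at 0.0748 and Myh10, a non-muscle myosin, at 0.0844.

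A count of 0 in every NA sample was rare. Of the 11987 tested genes, 2 were at 0 in all NA samples, namely Zfp979 and 5830444B04Rik, and 2 were at 0 in all WT samples. Of the 14123 genes in the whole table with at least 10 counts over the WT samples, 23 were at 0 in all NA samples. In the other direction, 17 of 13962 genes with at least 10 counts over the NA samples were at 0 in all WT samples. Of the 23 genes, 5 lay on chromosome 4, which held 880 of the 14123. They were Zfp979 and Zfp981 in the zinc finger cluster and 5830444B04Rik, Cfap74 and Gabrd side by side. Cfap74 shares 453 exon bases with 5830444B04Rik, and Zfp981 holds 2.27% of the 75-base windows of Zfp979. The 5 can therefore not be counted as separate losses. Gabrd, a GABA receptor subunit gene, had 0, 1, 2, 3 and 4 counts in WT replicates 1 to 5, and its start lies 23.6 kb from that of 5830444B04Rik. These 23 genes were selected for their values, so the counts are a description. The most counted of them after the first 2 were Pla2r1 with 43 counts over the WT samples and Etl4 with 32.

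Genes around the 5 were set by position and not by their values. At an adjusted p under 0.05 by limma, 34.3% of all tested genes differed between the groups, 16.9% higher and 17.3% lower in NA MPs. Within 1 Mb of the starts of the 5 genes lay 248 other genes, of which 96 were tested. Of these, 27 passed the threshold (28.1%), with 19 higher and 8 lower in NA MPs and a median log2 difference of 0.01. For all tested genes the median was -0.01. The share of neighbours called was below that of all tested genes, and 1 of the 96 differed by more than 2-fold.

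Around Zfp979, 23 genes were tested, 1 rose and 3 fell, and their log2 differences lay between -0.28 and 0.27. The nearest tested genes were Gm16211, 28.3 kb away, at 112.7 ± 2.10 in NA MPs and 93.9 ± 13.7 in WT MPs (log2 difference 0.27 ± 0.10 SE, limma adjusted p = 0.0355), and Gm16503, 102.3 kb away on the other side (0.17 ± 0.27, adjusted p = 0.673). The call of Gm16211 was lost without any single one of NA replicates 1 to 4 or WT replicates 2 to 4 (limma adjusted p up to 0.158). The loss of Zfp979 was therefore not shared by the tested genes beside it, while the untested Zfp981 was also at 0.

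Around 5830444B04Rik, 36 genes were tested, of which 3 rose and 4 fell. The untested Cfap74 and Gabrd, 12.5 and 23.6 kb away, were at 0 in all NA samples. Their levels in WT MPs were low, at 2.61 ± 1.80 and 1.92 ± 1.52. The closest tested genes were Prkcz, an atypical protein kinase C, at 60.3 kb (0.10 ± 0.27 SE, limma adjusted p = 0.811) and Gnb1, a G protein subunit, at 69.7 kb (0.03 ± 0.03 SE, adjusted p = 0.47). Gnb1 was well measured, at 1822 ± 46.8 in NA MPs and 1782 ± 53.9 in WT MPs. Farther out, Tnfrsf18, the costimulatory receptor GITR, rose by 0.94 ± 0.18 (limma adjusted p = 6.1e-05), and C1qtnf12 fell by 0.79 ± 0.09 (adjusted p = 5.64e-05). In the stretch of chromosome 4 between Zfp979 and 5830444B04Rik, 76 genes were tested, 11 of them higher and 11 lower in NA MPs, all by less than 2-fold.

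Around C1qtnf6, 32 genes were tested, and 15 of them (46.9%) rose while none fell. Their differences were small, with a highest value of 0.86. Rac2, a small GTPase of blood cells whose start lies 41.4 kb away, was at 3102 ± 172.2 in NA MPs and 2658 ± 63.5 in WT MPs (log2 difference 0.22 ± 0.03 SE, limma adjusted p = 1.91e-07). Kctd17 at 102.9 kb on the other side rose by 0.31 ± 0.11 (adjusted p = 0.0186), a call lost without NA replicate 2 or 4 or WT replicate 2 (adjusted p up to 0.0963). Lgals1, which encodes the lectin galectin 1, rose by 0.75 ± 0.04 (adjusted p = 3.58e-14), and Csf2rb2, a cytokine receptor chain, by 0.69 ± 0.13 (adjusted p = 9.53e-05). No tested gene within 1 Mb of C1qtnf6 fell.

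Gpc4 shares its stretch of the X chromosome with Gpc3, the glypican that lies 448.7 kb from it. Gpc3 was the only one of the 96 tested neighbours to differ by more than 2-fold. It was at 15.6 ± 1.74 in NA MPs and 38.9 ± 4.34 in WT MPs (log2 difference -1.26 ± 0.18 SE, limma adjusted p = 3.82e-07). On the other side the nearest tested gene was Mbnl3, 958.7 kb away (-0.10 ± 0.06 SE, adjusted p = 0.15). Slc6a15 had no tested neighbour: 1 of the 10 genes within 1 Mb had any value above 0.

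**Figure D3:**
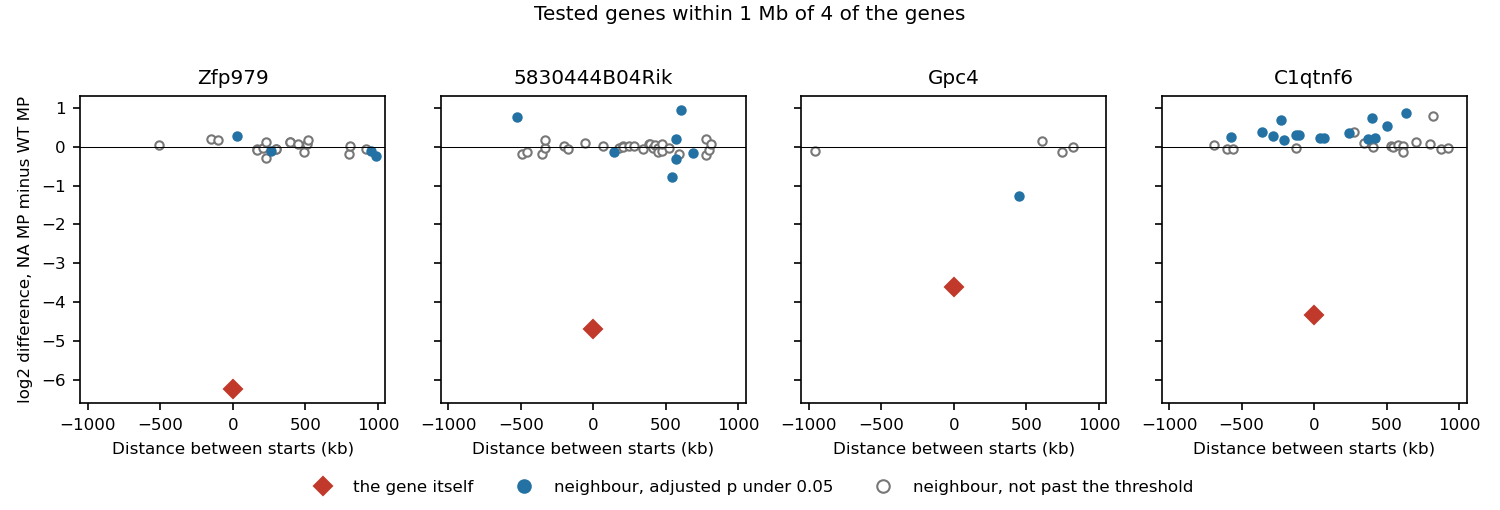
log2 difference between NA MPs and WT MPs (y axis) for the tested genes within 1 Mb of 4 of the genes, against the distance between annotated starts in kb (x axis). The red diamond is the gene itself, filled blue points are neighbours past an adjusted p of 0.05 and open points are not. Neighbours lie between -1.26 and 0.94, all far above the diamonds.

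The other members of the 5 genes' families and pathways were followed in 7 lists, which held 128 genes of the table. Of the 76 tested, 35 passed the threshold (46.1%, against 34.3% of all tested genes), 15 higher and 20 lower in NA MPs. Of 9 glypicans and syndecans besides Gpc4, the cell-surface carriers of heparan sulfate, 7 were tested, and 3 rose and 3 fell. Sdc2, the transmembrane syndecan just outside the 5, was at 48.9 ± 6.39 in WT MPs and 2.63 ± 1.88 in NA MPs (log2 difference -3.92 ± 0.28 SE, limma adjusted p = 2.36e-15). Sdc1 fell by 1.21 ± 0.24 (adjusted p = 8.43e-05). In the opposite direction, Sdc4 went from 4.29 ± 1.91 to 33.6 ± 12.9 (2.70 ± 0.31 SE, adjusted p = 1.7e-09) and Sdc3 from 34.2 ± 8.22 to 101.6 ± 27.0 (1.54 ± 0.17 SE, adjusted p = 3.94e-08). Gpc1, the most counted of the list, was at 1800 ± 109.4 in NA MPs and 1460 ± 61.4 in WT MPs (0.30 ± 0.04 SE, adjusted p = 1.5e-08). The core proteins that carry heparan sulfate thus changed in both directions.

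The tested enzymes that build and trim heparan sulfate moved little. Of 17 tested, 2 rose and 5 fell, none by 2-fold, with a median log2 difference of -0.07. Extl3, which starts the chain, fell by 0.40 ± 0.06 (limma adjusted p = 2.78e-07). Ndst1, which replaces acetyl groups by sulfate, rose by 0.29 ± 0.05 (adjusted p = 7.81e-06), and Ext2, which extends the chain, by 0.18 ± 0.04 (adjusted p = 0.000842). The untested Hs6st2, whose start lies 483.4 kb from that of Gpc4, was at 13.5 ± 7.25 in NA MPs and 5.26 ± 0.901 in WT MPs. Its values were 7.79 to 24.0 in NA samples and 4.28 to 6.11 in WT samples. Hs3st3b1, also untested, leaned the other way, at 2.783 ± 2.189 in NA MPs and 4.267 ± 1.885 in WT MPs.

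Of 18 other SLC6 genes, 2 were tested. Slc6a6, the taurine transporter, was at 893.5 ± 23.0 in NA MPs and 881.8 ± 38.3 in WT MPs (log2 difference 0.02 ± 0.04 SE, limma adjusted p = 0.739). Slc6a13, a GABA transporter, fell by 0.32 ± 0.13 (adjusted p = 0.0462). That call was lost in each fit without a single sample other than NA replicate 1 and WT replicate 4 (adjusted p up to 0.124), and with the replicate number as a block (limma adjusted p = 0.0744). Among the untested SLC6 genes, Slc6a20a was at 1.27 ± 1.02 in NA MPs and 10.6 ± 5.68 in WT MPs. Its values were 0 to 2.40 in NA samples and 6.00 to 20.5 in WT samples. Slc6a8 leaned the other way, at 4.73 ± 1.27 in NA MPs and 2.52 ± 1.31 in WT MPs. Other transporters of neutral amino acids were tested in 17 cases, of which 4 rose and 6 fell, with a median log2 difference of -0.12. Slc38a5, a glutamine transporter, was the one change over 2-fold, at 70.0 ± 17.6 in NA MPs against 185.2 ± 30.7 in WT MPs (-1.41 ± 0.18 SE, adjusted p = 0.000152). Slc7a5, the main importer of leucine, fell by 0.19 ± 0.04 (adjusted p = 3.65e-05), and its partner chain Slc3a2 rose by 0.14 ± 0.04 (adjusted p = 0.00635). Of 12 enzymes that break down branched-chain amino acids, 2 rose and 1 fell, none by 2-fold. Of the breakdown genes, Bckdha rose by 0.21 ± 0.04 (limma adjusted p = 0.000132), Dld fell by 0.19 ± 0.04 (adjusted p = 0.000573), and Bcat1, at 23.3 ± 6.06 in NA MPs and 15.2 ± 2.93 in WT MPs, rose by 0.57 ± 0.23 (adjusted p = 0.0462). The call of Bcat1 was lost without any single one of NA replicates 2 to 4 or WT replicates 2 and 3 (limma adjusted p up to 0.217).

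Among genes with a C1q domain, 7 were tested besides C1qtnf6, and 3 rose and 2 fell. The genes that rose were the 3 chains of complement component C1q. C1qa was at 75.6 ± 23.7 in NA MPs and 13.7 ± 1.91 in WT MPs (log2 difference 2.34 ± 0.19 SE, limma adjusted p = 1.44e-13). C1qb rose by 1.95 ± 0.26 (adjusted p = 1.5e-06) and C1qc by 2.50 ± 0.26 (adjusted p = 2.18e-07). C1qtnf12, the other C1q/TNF-related gene that was tested, went from 701.9 ± 77.9 in WT MPs to 404.0 ± 42.2, and Emilin2 fell by 0.61 ± 0.05 (adjusted p = 7.78e-15). The most counted of the list, Emilin1, was at 1839 ± 122.1 and 1785 ± 30.5 (adjusted p = 0.397).

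The partners of KRAB zinc finger proteins were close to level between the groups. Of 14 tested, 1 rose and 2 fell, with a median log2 difference of -0.03. Trim28 itself was at 4254 ± 76.9 in NA MPs and 4144 ± 74.5 in WT MPs (0.04 ± 0.03 SE, limma adjusted p = 0.262), and the histone methyltransferase gene Setdb1 at 741.4 ± 56.4 and 792.5 ± 26.0 (adjusted p = 0.081). Chd3 rose by 0.49 ± 0.04 (adjusted p = 1.47e-14) and Cbx5, which encodes heterochromatin protein HP1 alpha, fell by 0.25 ± 0.03 (adjusted p = 1.24e-08).

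Among other genes named Zfp with a number, 281 were tested, and 19 rose and 39 fell. The share called, 20.6%, was below that of all tested genes, and the median log2 difference was -0.02. Changes over 2-fold past the threshold were 6 falls and 1 rise, where 1.51% and 2.56% of all tested genes changed so. Zfp783 had 245, 318, 282, 261 and 297 counts in WT replicates 1 to 5 and 15, 14, 22 and 35 in NA replicates 1 to 4. Zfp125 fell by 3.33 ± 0.38 (limma adjusted p = 1.52e-09) and Zfp827 went from 14.7 ± 2.57 in WT MPs to 3.00 ± 1.35 (adjusted p = 5.89e-06). Zfp446, Zfp324 and Zfp560 fell by 1.37, 1.18 and 1.12. The single rise was of Zfp36, which encodes an mRNA decay factor with another kind of finger (2.36 ± 0.32 SE, adjusted p = 0.000856).

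**Figure D4:**
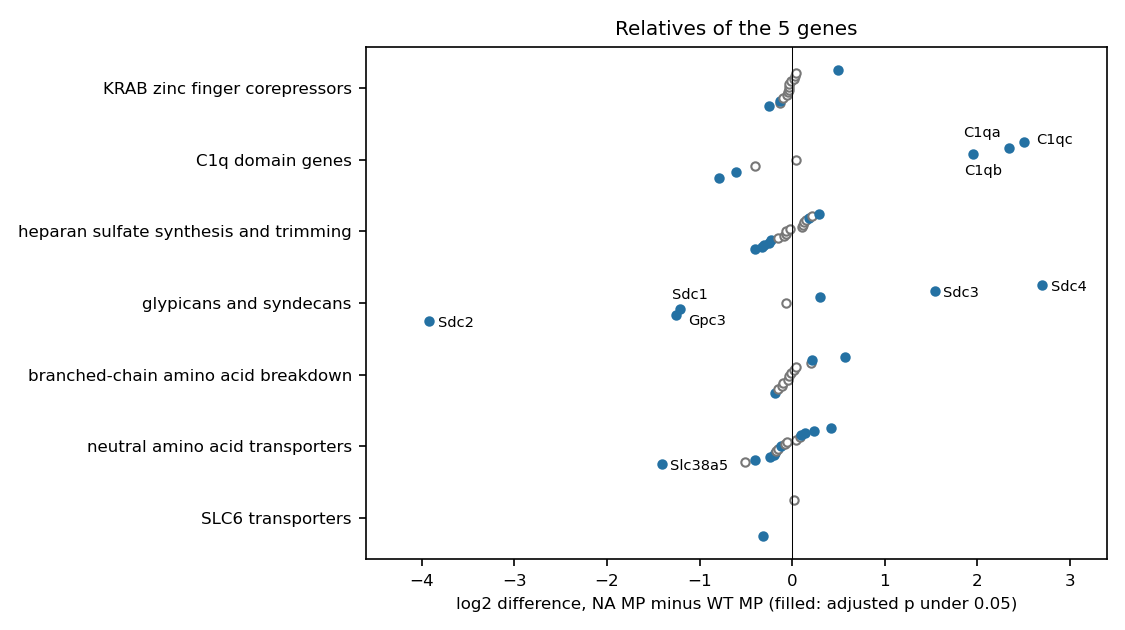
log2 difference between NA MPs and WT MPs (x axis) for each tested gene of the 7 lists of relatives (y axis). Filled points passed an adjusted p of 0.05, and genes past it with a change over 2-fold are named. The glypicans and syndecans and the C1q domain genes spread widest, from -3.92 for Sdc2 to 2.70 for Sdc4 and from -0.79 for C1qtnf12 to 2.50 for C1qc.

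RefSeq promoters, taken as the 250 bases before the start in GRCm38.p6, were in the table used here for Zfp979, C1qtnf6 and Gpc4. They had 2, 7 and 18 CpG dinucleotides, against a median of 6 over 32851 promoters. The windows of C1qtnf6 and Gpc4 lie inside the genes as GENCODE annotates them, so these counts do not describe the bases before the GENCODE starts. The promoter of Zfp979 is shown because it was the only one of these with any of the 4 motifs searched on both strands. It held 2 matches to TGATNNAT, a core bound by Hox and Pbx proteins together, which 7.68% of promoters held at least once. It also held 1 match to TTTAT, a core that Hox proteins of the posterior groups favour, which 37.3% held. The Meis core TGACAG (15.9% of promoters) and the TATAAA box (12.4%) were not in these 250 bases. The run is the minus strand of chr4:147642514-147642758, the 245 bases that lie before the GENCODE start, with the matches in capitals. The matches do not overlap, and the TTTAT match follows directly on the other.
Zfp979 promoter: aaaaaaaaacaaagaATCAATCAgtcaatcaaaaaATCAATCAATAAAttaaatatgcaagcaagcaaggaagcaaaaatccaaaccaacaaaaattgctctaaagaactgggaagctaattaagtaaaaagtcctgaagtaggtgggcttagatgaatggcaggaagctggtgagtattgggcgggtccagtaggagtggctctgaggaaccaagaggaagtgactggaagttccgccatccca
A match of letters is a description of this window and not a binding site.

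Markers of other cell types also differed between the groups. Of 13 tested erythroid markers, 11 were lower in NA MPs (median log2 difference -0.82), and their summed level was 6213 to 7852 in NA samples and 11540 to 12750 in WT samples. All 11 tested B lineage markers were higher in NA MPs (median 3.34), with a sum of 1436 to 2585 against 368.2 to 414.1. Of 8 megakaryocyte markers, 1 rose and 3 fell, and the sums overlapped. Of 8 T lineage markers, the 2 tested (Lck and Thy1) rose, Cd3e and Cd3g were at 0 in all samples, and the sum was 124.8 to 143.6 against 21.4 to 35.0. Of 10 stroma markers, the 2 tested (Col1a2 and Pdgfrb) rose, and the sum was 438.1 to 488.6 against 205.9 to 240.1. Nearly all of that sum was Pdgfrb, at 430.2 ± 19.7 in NA MPs and 206.7 ± 14.2 in WT MPs. Of the other stroma markers, Pdgfra, Dcn and Lum were at 0 throughout, and Cxcl12, not tested, was at 7.996 ± 5.41 in NA MPs and 3.34 ± 0.974 in WT MPs. Of 3 tested endothelial markers 1 rose and 1 fell. The part of such cells in the levels of the 5 genes was not tested.

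Strain and sex were checked with fixed genes as well, since Gpc4 is X-linked. The Y-linked Ddx3y, Eif2s3y and Kdm5d were at 0 in all 9 samples, and Xist passed no threshold (log2 difference -0.16 ± 0.08 SE, limma adjusted p = 0.181). Nnt and Wdfy1, genes that vary among C57BL/6 substrains, were both higher in NA MPs. Nnt was at 722.1 ± 26.4 and 491.3 ± 20.2 (0.55 ± 0.05 SE, adjusted p = 1.52e-13), and Wdfy1 was at 528.2 ± 20.2 and 187.3 ± 15.1 (1.49 ± 0.06 SE, adjusted p = 2.69e-23). The substrain of the stem cell line is not given in the sources used here, and the part of a strain difference in the loss of the 5 genes was not tested.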

How the data were processed

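Poly(A) RNA of 4 NA MP and 5 WT MP samples was sequenced on a NextSeq 500 after TruSeq library preparation. Per the labels, the authors used RSEM and the mm10 build; versions are not given in the sources used here. The deposited values carry the name of raw counts, but in every sample 97.3 to 97.7% of the values above 0 were whole multiples (within 0.02 of a count) of a single step of 0.8266 to 1.2. The signal that the authors deposited is therefore taken as RSEM counts divided by a size factor per sample, and deposited totals lay between 6602851 and 6734284. Counts per sample were recovered by dividing by the step, and are given for single genes and for ratios with exact counting intervals.

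The scaled values were tested as log2(value + 1) with limma 3.58.1 (trend and robust options, R 4.3.3), without covariates. Genes with a value of at least 10 in at least 4 samples were kept (11987 of 20182 with any value). Benjamini-Hochberg adjustment was used with a threshold of 0.05. The count models planned at first were not run. The script was tested on simulated data. Fold changes on this scale understate the change of low genes. Where all NA samples were at 0, the fold is against 3 counts per sample.

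Within groups, pairs of samples differed beyond counting noise (chi-square per degree of freedom 1.63 to 2.82 in NA MPs and 1.21 to 1.72 in WT MPs), so no sample was counted as a copy of another. Symbols matched 32916 of 37980 identifiers. Positions, exons and transcripts came from GENCODE M21 (GRCm38), alignments from blastn 2.17.0, and promoters from RefSeq. Protein sequences were not used here.

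The genes and the lists of relatives and markers were chosen with earlier results of these data known. Named were the 5 genes, the next 5 by fall, genes overlapping or nearest to them, neighbours and list members changed over 2-fold, the most counted or best known of each list, the 3 most similar profiles and the relatives of Zfp979. Genes of lists changed less than 2-fold, untested list genes, further zinc finger genes near Zfp979, Gabrd, Pla2r1 and Etl4 were named after their values were seen. Alternatives were other filters, pseudocounts, scalings and thresholds, a replicate block, a 500 kb window and leaving out each sample.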

Additional observations from a re-analysis of the deposited data

Results flagged for a closer look

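In 2 of the 18 sets of replicates examined, which covered the 5 genes and the next 5 by fall, a single sample stood apart from the rest of its group by Dixon's test. Chance alone gives this in about 1 in 20 sets. Gpc4 was at 29.1 on the deposited scale in WT replicate 2, the highest of the WT samples. C1qtnf6 was at 190.1 in WT replicate 4, also the highest.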

How the results depend on the processing

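No ratio and no named gene past the threshold changed direction; Prkcz, not past it at 0.10, was at -0.06 without NA replicate 4. The number of genes past the threshold over all tested genes (4107) lay between 2857 and 4183, and was 3549 to 3937 when single samples were left out. The share lower in NA MPs, 50.6%, lay between 47.4% and 55.7%, so which direction held more genes changed. For neighbours within 1 Mb the count of 27 became 17 with a 500 kb window, which holds fewer genes, and was 25 to 28 without single samples. For relatives the count of 35 was 32 to 35 without single samples. Of 51 named genes past the threshold, 45 stayed so under each alternative that could test them (12 to 17 of 17); Gm16211, Kctd17, Slc6a13 and Bcat1 were lost in several, and Cd34 and Slc3a2 without limma's trend and robust options. Of 12 not past it, Elane and Mpo passed without NA replicate 1, and Setdb1 without NA replicate 4 and with equal totals.

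Replicate numbers do not pair the samples: deviations of same-numbered samples correlated at 0.006, 0.003, -0.02 and 0.057. With the replicate block, 3693 genes, 29 neighbours and 33 relatives passed.

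Without single samples the ratio of WT to NA levels was 22.8 to 25.7 for Zfp979 and 7.53 to 8.49 for 5830444B04Rik (both lower bounds), 15.1 to 67.1 for Slc6a15, 13.0 to 30.1 for Gpc4 and 20.4 to 24.1 for C1qtnf6. Counts with no scaling gave 22.9 for C1qtnf6. For Slc6a15 and Gpc4 the range follows from the 4 and 5 counts in NA MPs. With windows of 50 and 150 bases in place of 75, the share of Zfp979 found in no other gene was 72.9% and 83.7%. Count models were not run, although counts per sample had been recovered. For the tests, the only other normalization was scaling to equal total counts. The pseudocounts, counts with no scaling and limma options were added after seeing the data.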
